A study of Drosophila melanogaster with 20 samples.

Results

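Glial cells and neurons sorted from adult Drosophila melanogaster brains were compared on microarrays. The comparison rested on 10 of the 20 arrays in the series, 5 labelled all glia and 5 labelled neurons, chosen by the label for cell type. The all glia arrays held GFP-positive cells of the REPO-GFP line, sorted from pools of 10 to 15 brains of both sexes after shaking at 500 rpm for 20 min at 37 °C. The neuron arrays held GFP-positive cells of the ELAV-GFP line from pools of 10 to 15 brains of both sexes, shaken at 1000 rpm for 20 min at 37 °C. Collagenase A and DNase I were used for both sorts, and the replicates of a group came from different bottles of flies on different days. Surface glia (the 9.137-GFP line, 500 rpm for 5 min) and whole brain (wild-type Canton S, 5 brains) are given beside the comparison, with 5 arrays each. The fly line and the shaking speed differed between the all glia and neuron sorts, so their effects cannot be told apart from that of cell type. The age of the flies and the full genotype of the GFP lines are not given in the sources used here.

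Repo is a homeodomain transcription factor found in nearly all fly glia outside the midline, and Elav is an RNA-binding protein long used to mark neurons. The glia of the fly brain are layered. Perineurial and subperineurial glia cover the surface and form the blood-brain barrier, which works through septate junctions, efflux pumps and nutrient transporters. Cortex glia wrap neuronal cell bodies, ensheathing glia line the neuropil, and astrocyte-like glia send processes among synapses and take up transmitter. A sort by repo is aimed at all of these classes.

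Values are the authors' deposited log2 levels, so a difference of 1 is a 2-fold change, and every difference is all glia minus neurons. A probe set or gene was called higher or lower where limma gave a Benjamini-Hochberg adjusted p under 0.05 and the log2 difference was at least 1 in size. For some lists, counts at an unadjusted limma p under 0.05 are given too. The share of all genes at that threshold was not counted. Such counts therefore do not show a gain or loss particular to a list. Among 18769 probe sets, 596 were higher (3.18%) and 816 were lower (4.35%). Taken as 11982 genes with 1 probe set each, 465 were higher in all glia (3.88%) and 567 were lower (4.73%). The rises were larger than the falls. Of the higher genes, 54 differed by at least 4 and their median size was 1.87, while of the lower genes 3 differed by at least 4 and their median size was 1.68. In sorted bulk RNA, fewer cells of a type and less RNA per cell cannot be told apart.

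All glia replicate 4 stood apart from the other arrays of its group. Its mean correlation with the other all glia arrays was 0.772, while without it the pairwise correlations within the group were at least 0.921, and between neuron arrays they were 0.966 to 0.978. The negative-control probe sets had a 95th percentile of 6.08 in that array, 4.70 to 5.10 in the other all glia arrays and 4.12 to 4.63 in neurons. Without it, 348 genes were higher (2.90%) and 360 were lower (3.0%), of which 317 and 321 were also called with all 10 arrays. It was the lowest of the 5 all glia arrays for 236 of the 567 lower genes. Negative controls were also brighter in all glia than in neurons by a median log2 difference of 0.61, or 0.38 without replicate 4, and 19 of the 465 higher genes lay within the controls in every array of both groups. Where a gene lay within the controls in every array of the dimmer group, its difference is given as a lower bound ("at least") against their 95th percentile in that group. For Mdr65, moody, CG6126, CG5687, CG3168, blot, CG10550, BomS2, GstS1, if, zyd, wrapper, htl, Prip, bark, nAChRbeta3, bt, cmet, fest, nbs, put and prt, the mean of the dimmer group lay under that percentile without every array lying within the controls, so the size of their differences is uncertain. The relation between 3′ and 5′ signal of the eIF-4a control, a sign of RNA quality, overlapped between the groups, with log2 differences of 2.37 to 5.92 in all glia and 4.50 to 5.65 in neurons.

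**Figure D1:**
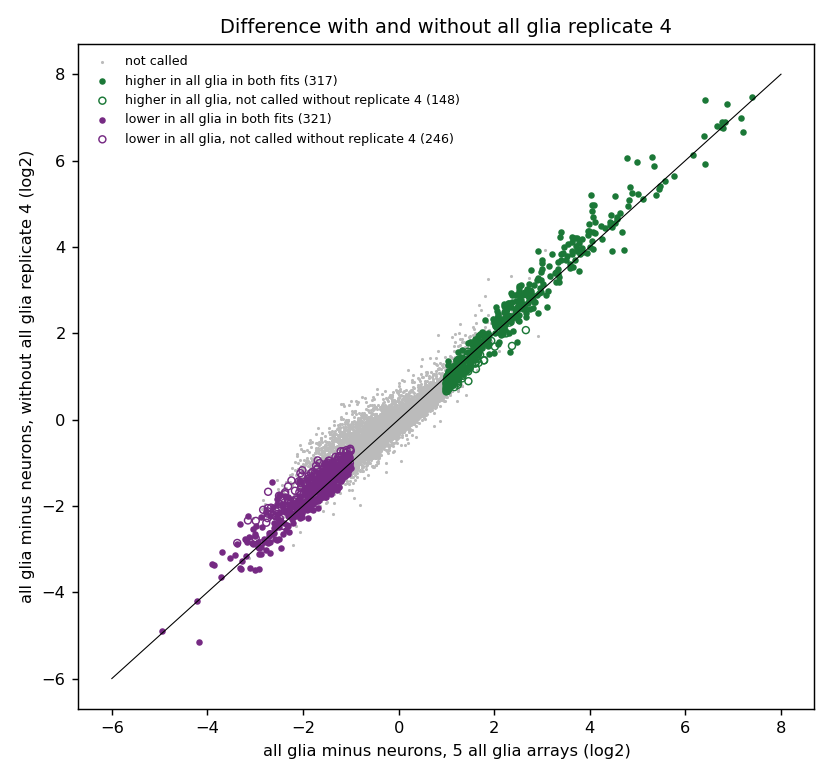
Log2 difference (all glia minus neurons) of each gene with all 5 all glia arrays (x axis) and without all glia replicate 4 (y axis). Filled points are genes called in both fits (317 higher, 321 lower), open points lost their call without replicate 4, grey points were not called, and the line marks equal values.

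The sort was checked first on its named markers. repo itself was higher in all glia, at log2 levels of 8.07, 7.08, 8.30, 7.23 and 8.55 in all glia replicates 1 to 5, against 6.38, 4.30, 5.57, 6.63 and 5.21 in neurons. The groups did not overlap, and the difference was 2.23 ± 0.38 (SE, n = 5 each, adjusted p = 0.00112). The level of repo in all glia averaged 7.85 ± 0.66, below that in surface glia (10.66) and in whole brain (10.11). bnb, an abundant transcript of glia, was at 13.28, 12.28, 13.25, 12.82 and 12.89 in all glia, against 7.18, 9.05, 8.99, 9.02 and 7.67 in neurons, with no overlap. Its difference was 4.52 ± 0.33 (SE, n = 5 each, adjusted p = 1.33e-08). Inx2, a gap junction subunit of glia, averaged 9.39 ± 0.40 in all glia and 5.73 ± 0.50 in neurons (SD, n = 5 each), a difference of 3.66 with an adjusted p of 2.94e-08 and no overlap.

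toy, which encodes a Pax6 transcription factor and was also given as a marker, went the other way. Its brightest probe set was at 11.89, 12.11, 11.15, 12.71 and 12.18 in all glia, against 13.34, 13.01, 12.98, 12.86 and 13.25 in neurons. All 5 all glia arrays lay below every neuron array, yet the difference of -1.08 was not called (adjusted p = 0.195). The other two toy probe sets were called lower, at -3.71 and -3.62. In these arrays toy therefore did not mark the repo-GFP sort.

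Of 14 measured pan-glial genes, 8 were higher (57.1%, against 3.88% of all genes), and the list's median log2 difference was 1.58, against 0.18 over all genes. The innexin ogre, a partner of Inx2, rose by 2.12 to 9.60 in all glia, against 7.48 in neurons. htl, an FGF receptor used by glia, was higher by 2.03 (adjusted p = 0.0313), but its call was lost in 5 of the 10 fits that left out 1 array each. nrv2, a sodium pump beta subunit and septate junction component, was higher by 1.5, at 11.25 ± 0.20 in all glia and 9.75 ± 0.34 in neurons (SD, n = 5 each). The same 8 of 14 count was found without all glia replicate 4.

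**Figure D2:**
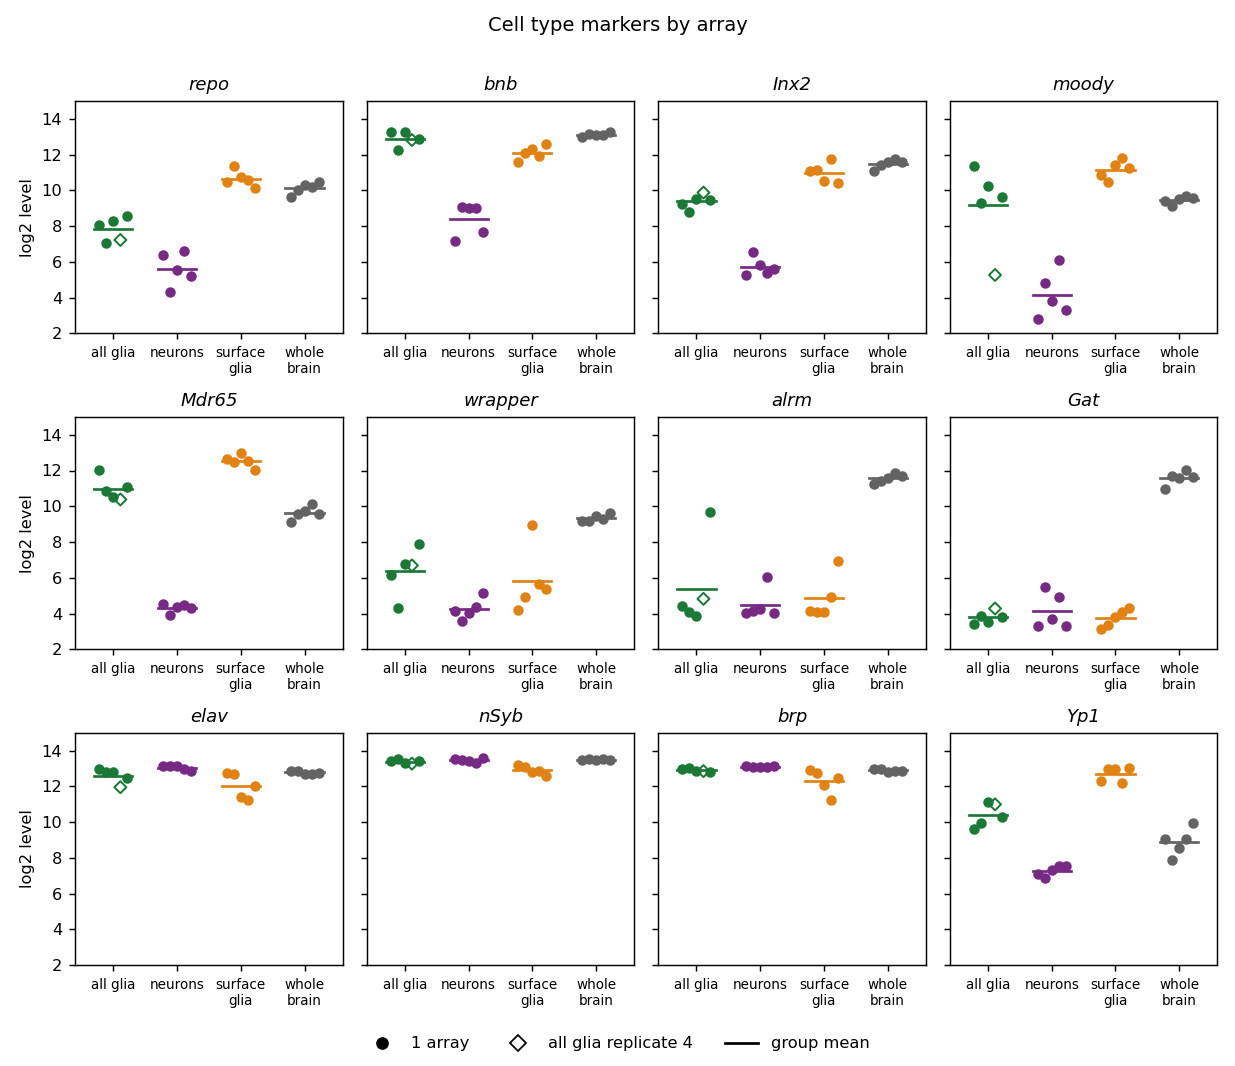
Log2 level (y axis) of 12 marker genes in each array of the 4 groups (x axis), with all glia replicate 4 as an open diamond and a line at each group mean. The Mdr65 level averages 10.97 in all glia and 4.31 in neurons, Gat is low in all 3 sorted groups and high in whole brain, alrm likewise except in all glia replicate 5 (9.70), and elav, nSyb and brp are high in all groups.

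The glial subtypes were not gained alike. Of 18 genes of the surface glia and barrier, 13 rose (72.2%, against 3.88% of all genes) and 1 fell, with a median difference of 4.08. Of 6 cortex glia genes 3 were higher, and of 13 astrocyte-like and ensheathing glia genes 4 were higher, with a median difference of -0.32. Their mean level per array was 6.76 to 7.64 for the astrocyte and ensheathing list in all glia and 6.58 to 7.13 in neurons, while whole brain stood at 10.20 to 10.45. For the surface and barrier list the mean level was 7.44 to 8.87 in all glia, 4.72 to 5.09 in neurons, 9.60 to 10.18 in surface glia and 7.62 to 7.90 in whole brain. The differences between these lists were not tested.

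Mdr65, an ABC transporter by which the barrier expels drugs, was at 12.03, 10.88, 10.50, 10.38 and 11.05 in all glia, against 4.51, 3.90, 4.37, 4.48 and 4.31 in neurons. The groups were far apart, with a difference of 6.65 ± 0.28 (SE, n = 5 each, adjusted p = 2.76e-12). moody, a G protein-coupled receptor needed for the barrier's junctions, was at 11.34, 9.28, 10.27, 5.27 and 9.66 in all glia, against 2.83, 4.82, 3.83, 6.09 and 3.30 in neurons. All glia replicate 4 was low and fell among the neuron arrays. The difference was 4.99 with all arrays and 5.96 without that array, with adjusted p of 0.000455 and 5.32e-07. Indy, a citrate transporter, showed the same array apart, at 11.39, 9.18, 10.31, 5.43 and 10.50 in all glia, against 2.69 to 3.33 in neurons. Indy lay within the controls in every neuron array, so its log2 difference is at least 4.97.

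Large rises were also found for other barrier genes, most of them transporters. CG6126, a member of the organic cation transporter family, was higher by 6.79, at 11 ± 0.50 in all glia and 4.21 ± 0.61 in neurons (SD, n = 5 each). CG5687 and CG3168 were higher by 6.38 and 5.35. Tret1-1, a trehalose transporter, was at 11.99, 11.40, 12.01, 11.01 and 11.69 in all glia, against 6.76, 7.30, 7.02, 6.81 and 7.00 in neurons, a difference of 4.64 without overlap. Lac (Lachesin), an adhesion protein of septate junctions, was the 1 barrier gene that fell, to 8.31 ± 1.13 in all glia, against 10.26 ± 0.42 in neurons (SD, n = 5 each, difference -1.95, adjusted p = 0.00691). Every named barrier gene of this paragraph kept its call without all glia replicate 4.

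Among cortex glia genes, zyd, a sodium-calcium-potassium exchanger, was at 7.46, 6.79, 8.68, 6.53 and 9.38 in all glia, against 3.6 to 4.6 in neurons. Cyp4g15, a cytochrome P450 typical of cortex glia, was at 8.50, 8.56, 8.69, 7.26 and 8.71 in all glia, against 4.23 to 5.29 in neurons. Neither gene overlapped between the groups, and the differences were 3.72 and 3.63. wrapper, a membrane protein by which cortex glia hold neuronal cell bodies, was higher by 2.11 with an adjusted p of 0.0468. That call was lost in 7 of the 10 leave-one-out fits, among them the fit without all glia replicate 4 (2.03, adjusted p = 0.098), and the level in all glia (6.37) stayed below whole brain (9.34).

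The astrocyte markers alrm and Gat were low in most arrays of the repo sort. Of the 13 astrocyte-like and ensheathing glia genes, 4 were nevertheless higher than in neurons (30.8%, against 3.88% of all genes). alrm, a leucine-rich repeat gene expressed by astrocyte-like glia, was at 4.44, 4.11, 3.84, 4.82 and 9.70 in all glia, against 4.01, 4.14, 4.27, 6.05 and 4.03 in neurons, with whole brain at 11.56. Replicate 5 was high and the other 4 all glia arrays lay among or just below the neurons, and the difference of 0.88 was not called (adjusted p = 0.416). Gat, the GABA transporter of astrocyte-like glia, lay within the negative controls in every all glia array (mean 3.78) and averaged 4.14 in neurons and 11.59 in whole brain. Obp44a, an odorant-binding protein family member abundant in glia, was the clearest gain of this list, at 13.03 ± 0.38 in all glia and 10.01 ± 1.1 in neurons (SD, n = 5 each, difference 3.02, adjusted p = 4.17e-05). CG1552 was higher by 1.89. rumpel and kumpel, solute transporters of the SLC5 family, were called higher at low levels. rumpel averaged 4.92 in all glia, 0.53 above the control percentile of neurons. That level lay under the control percentile of all glia (mean 5.15), so the size of its rise is uncertain. kumpel was higher by 1.19, a call lost without all glia replicate 4. The other kumpel probe sets differed by 0.68, 1.01, 1.21 and 0.72, and of these only the one at 1.01 was called. None of 14 genes for the clearance of glutamate, GABA and amines was called in either direction by limma, while 2 were higher and 1 lower at an unadjusted p under 0.05. In the fit without all glia replicate 4, 1 of the 14 was higher.

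Of 23 genes of the basement membrane and other matrix, 9 were higher in the repo sort (39.1%, against 3.88% of all genes), with a median difference of 0.88. Col4a1, which encodes a collagen IV chain, was at 13.12, 12.33, 11.82, 12 and 12.30 in all glia, against 4.86, 5.33, 4.74, 4.52 and 5.15 in neurons. Its difference of 7.39 ± 0.26 (SE, n = 5 each, adjusted p = 7.69e-13) was the largest of any gene whose groups did not overlap. vkg, the second collagen IV chain, was at 13.10, 12.82, 12.60, 12.46 and 11.77 in all glia, against 4.44, 6.35, 5.58, 4.99 and 7.62 in neurons, a difference of 6.75. The basement membrane that covers the surface glia also holds laminins and papilin. LanB1 and LanB2, laminin chains, were higher by at least 4.66 and 3.42, and Ppn (papilin) by at least 5.89, since all 3 lay within the controls in neurons. The collagen and laminin genes in whole brain stood at 10.75 for Col4a1 and 10.39 for vkg, but at 3.80 for LanB1 and 4.19 for LanB2. if, an alpha integrin, was the single called member of 19 integrin and adhesion genes (5.3%). It was at 8.34, 8.37, 8.34, 4.04 and 9.70 in all glia, against 2.61 to 5.58 in neurons, with replicate 4 inside the neuron range.

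Some marker genes of fat body, hemocytes and muscle were also higher in all glia. Of 15 fat body genes 6 were higher (40.0%, against 3.88% of all genes) and 9 were not called, with a median difference of 0.96. Their mean level per array was 8.0 to 8.4 in all glia and 6.55 to 6.76 in neurons. Yp1, a yolk protein made by fat body, was at 9.63, 9.95, 11.10, 10.99 and 10.27 in all glia, against 7.09, 6.85, 7.33, 7.52 and 7.56 in neurons, without overlap. regucalcin was higher by 4.12 (its other probe sets were at 3.87, called, and 1.03, not called) and Yp2 by 2.79. Of 19 hemocyte genes 6 were higher (31.6%) and 13 were not called, with a median difference of 0.68. The matrix genes Col4a1 and vkg are also on this list and had its largest differences, and the list mean was 6.64 to 6.88 in all glia and 5.26 to 5.48 in neurons. Hml, the hemocyte marker hemolectin, was at 5.2, 6.22, 5.92, 6.35 and 8.25 in all glia and within the controls in every neuron array, a difference of at least 1.99. NimC1, a hemocyte receptor, was higher by 1.89, and the GATA factor srp by at least 1.14, a call lost in 6 of the 10 leave-one-out fits.

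Of 20 muscle genes 3 were higher (15.0%, against 3.88% of all genes) and 1 was lower (5.0%, against 4.73%). The list mean was 5.02 to 5.59 in all glia and 4.36 to 4.73 in neurons. Act79B, an actin of tubular muscle, was at 7.63, 9.29, 10.02, 8.87 and 10.02 in all glia, against 4.36 to 6.10 in neurons. bt, which encodes the giant muscle kinase projectin, was the member that fell, by 4.22 (adjusted p = 0.0213), a call lost in 2 of the 10 leave-one-out fits. Of 14 tracheal genes 1 was higher (7.1%), the chitinase Cht2 (1.60). Of 22 photoreceptor and eye genes 1 was higher and 1 lower (4.5% each). Of 17 cell cycle genes 1 was lower (5.9%) and 0 higher, with 3 higher at an unadjusted p under 0.05. The part of fat body, hemocyte and muscle RNA in the gains of matrix and barrier genes was not tested. In surface glia, the sort aimed at the barrier, Yp1 stood at 12.69 and Hml at 6.23.

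**Figure D3:**
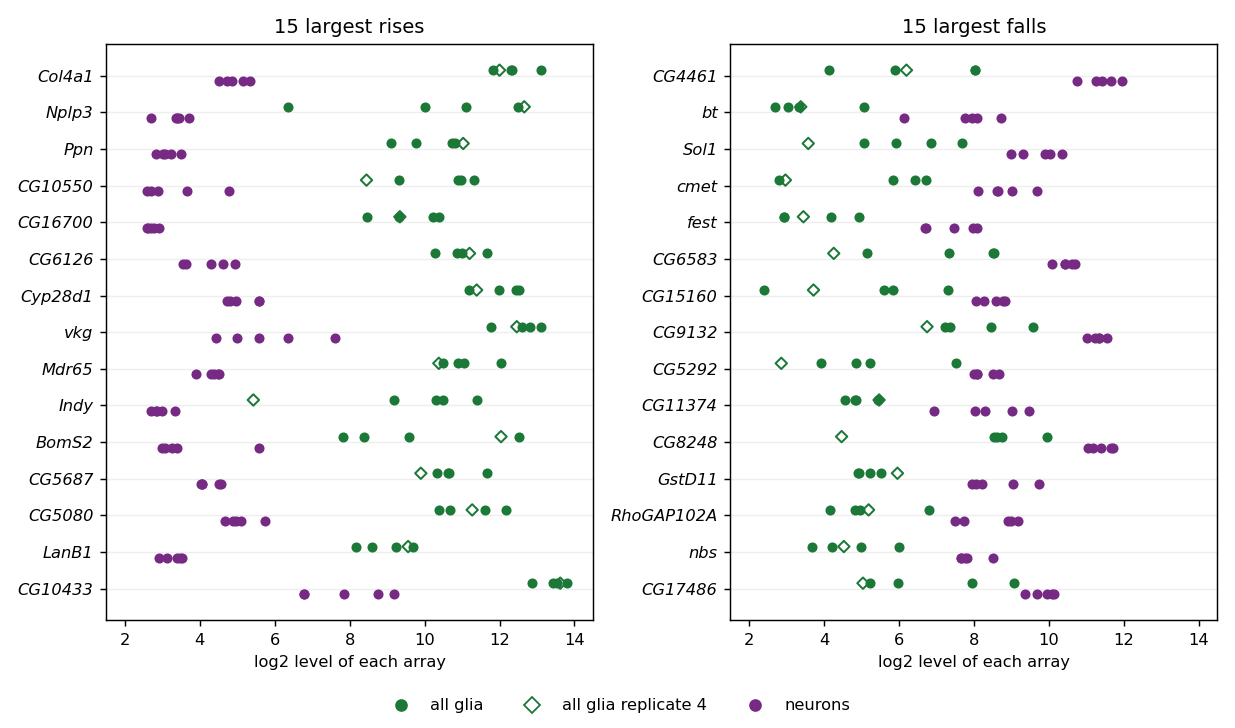
Log2 level (x axis) of each array for the 15 largest rises (left) and 15 largest falls (right) among called genes without overlap, ordered by size, with all glia in green above neurons in purple. Col4a1 heads the rises and CG4461 the falls, and all glia replicate 4 (open diamond) is the lowest all glia array for 6 of the 15 falls.

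Beyond barrier and matrix genes, the 15 largest rises held the secreted peptide gene Nplp3 (at least 6.13), the amino-acid transporter gene CG16700 (at least 5.15), CG10550 (6.87), the cytochrome P450 Cyp28d1 (6.77), the immune peptide gene BomS2 (6.41), CG5080 (6.15) and CG10433 (5.58). Nplp3 varied widely among the all glia arrays, at 10.00, 11.11, 12.49, 12.66 and 6.35 in all glia, against 2.71 to 3.72 in neurons. In 14 of these 15 genes the surface glia mean lay above the all glia mean, and in 1 of 15 the whole brain mean did. Over all 465 higher genes, the surface glia mean lay above the all glia mean for 313, and it lay closer to all glia than to neurons for 438. For the 567 lower genes these counts were 305 and 491, so neither was particular to the higher genes. The shares over all genes were not counted.

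Transporter families share members with the barrier list, among them Mdr65, Tret1-1, pippin, blot, CG6126 and CG3168. Of 29 ABC transporters 4 were higher (13.8%, against 3.88% of all genes). Mdr49, a second multidrug pump, was at 9.74, 9.55, 10.08, 7.73 and 9.44 in all glia, against 4.84, 5.27, 5.00, 5.50 and 6.05 in neurons, a difference of 3.98 without overlap. Of 37 sugar and monocarboxylate transporters 7 were higher (18.9%). pippin, a sugar transporter of surface glia, was higher by 3.40, and CG8051, of the monocarboxylate transporter family, by at least 2.81. Of 32 amino-acid transporters 4 were higher (12.5%), led by CG16700 of the SLC36 family (at least 5.15), blot of the SLC6 family (4.56) and CG7888 (3.51). CG7888 had 8.83 in all glia and 5.32 in neurons, with 12.06 in whole brain. Of 25 organic anion and cation transporters 6 were higher (24.0%) and 1, Oatp30B, was lower (-2.10, a call lost without all glia replicate 4). Oatp74D, an importer of ecdysone, was higher by 3.37, at 7.97 in all glia and 4.60 in neurons, although neuron replicate 1 at 6.63 overlapped the all glia range of 6.20 to 9.20.

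Ion homeostasis genes were called higher in 6 of 32 cases (18.8%, against 3.88% of all genes) and lower in 1 (3.1%, against 4.73%). NKCC, a sodium-potassium-chloride cotransporter of glia, was at 10.98, 11.02, 10.54, 8.93 and 10.00 in all glia, against 6.13, 6.47, 7.26, 6.41 and 6.05 in neurons. The groups did not overlap and the difference was 3.83 ± 0.34 (SE, n = 5 each, adjusted p = 3.74e-07). Irk2, an inward rectifier potassium channel, was higher by 2.99. The aquaporin Prip was higher by 2.22 (adjusted p = 0.0379), a call lost in 5 of the 10 leave-one-out fits. Its other probe set, at 1.68, was not called. CAH2, a carbonic anhydrase, was lower by 2.15, at 5.74 in all glia and 7.89 in neurons, and lost its call without all glia replicate 4.

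Septate junction genes were called in both directions. Of 27 measured, nrv2, bark and bou were higher (11.1%, against 3.88% of all genes). Lac and sinu were lower (7.4%, against 4.73% of all genes), and the list's median was -0.32. bark, a scavenger receptor-like protein of tricellular junctions, was higher by 1.33. sinu, a claudin, fell to 7.91 ± 0.81 in all glia, against 9.28 ± 0.17 in neurons (SD, n = 5 each, difference -1.37, adjusted p = 0.0181). The 5 all glia arrays of sinu, at 6.70 to 8.57, all lay below the neuron range of 9.01 to 9.42. bou lost its call without all glia replicate 4. Of 7 innexins 2 were higher (28.6%), Inx2 and ogre.

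Of 27 lipid carrier and droplet genes 8 were higher (29.6%, against 3.88% of all genes), with a median of 0.72, and 6 were higher without all glia replicate 4. Lsd-2, the lipid droplet coat protein perilipin 2, was at 12.19, 11.06, 12.14, 10.32 and 11.13 in all glia, against 6.34, 4.84, 8.05, 6.35 and 7.19 in neurons, a difference of 4.81 ± 0.44 (SE, n = 5 each, adjusted p = 5.5e-07). fabp, a fatty-acid binding protein, averaged 11.62 ± 1.03 in all glia and 9.54 ± 0.22 in neurons (SD, n = 5 each), a difference of 2.07. GLaz, a glial lipocalin related to apolipoprotein D, was higher by 2.04 (a call lost in 4 of the 10 leave-one-out fits), and Acbp2, an acyl-CoA binding protein, by at least 2.64. Fatty-acid beta-oxidation genes were higher in 6 of 17 cases (35.3%), with a median of 0.87, and 4 of 17 without all glia replicate 4. wal, an electron transfer flavoprotein subunit, rose by 1.66 to 9.00 in all glia, against 7.34 in neurons. yip2, a mitochondrial thiolase, rose by at least 2.05, and Mtpbeta, a subunit of the trifunctional protein, by 1.48.

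Glycolysis and lactate genes were higher in 4 of 19 cases (21.1%, against 3.88% of all genes) with smaller sizes. Gapdh1 was at 11.28, 10.83, 10.78, 10.66 and 10.42 in all glia, against 9.69, 9.22, 9.73, 9.36 and 9.08 in neurons, a difference of 1.38 without overlap. Pdk, the kinase that restrains pyruvate dehydrogenase, was higher by 1.64 and AGBE, the glycogen branching enzyme, by 1.66. Among 51 oxidative phosphorylation genes, 1 was called (2.0%), SdhB (1.15, lost in 6 of the 10 leave-one-out fits), and the median was 0.06. The median for 29 ribosomal protein genes was 0.39, and limma called none of them, although 13 were higher and 0 lower at an unadjusted p under 0.05 and 1 was higher without all glia replicate 4.

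Detoxification genes are used by barrier tissues to modify and export foreign compounds. The 82 measured cytochrome P450 genes held 12 that were higher (14.6%, against 3.88% of all genes) and 4 that were lower (4.9%, against 4.73%), and 26 lay within the controls in every array of both groups. Without all glia replicate 4 the P450 counts were 10 higher and 2 lower, and after quantile normalization 5 higher and 1 lower. Cyp28d1 was at 12.52, 11.18, 12.45, 11.39 and 11.98 in all glia, against 4.73, 5.57, 4.96, 5.59 and 4.82 in neurons. Cyp28a5 was higher by 3.37, or 4.24 without all glia replicate 4, which stood at 4.97 inside the neuron range of 4.19 to 6.16. Cyp4ac1 fell to 6.73 in all glia, against 9.00 in neurons. Of 67 glutathione and UDP-glycosyl transferases 10 were higher (14.9%) and 1 lower (1.5%). GstS1, a glutathione transferase, was at 8.62, 8.82, 9.70, 3.27 and 9.44 in all glia, against 2.93 to 4.68 in neurons. Replicate 4 again lay among the neurons, and the difference was 4.02 with it and 5.19 without it. GstD11 was the member that fell, to 5.31 ± 0.44 in all glia, against 8.60 ± 0.76 in neurons (SD, n = 5 each, difference -3.29, adjusted p = 6.16e-06).

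**Figure D4:**
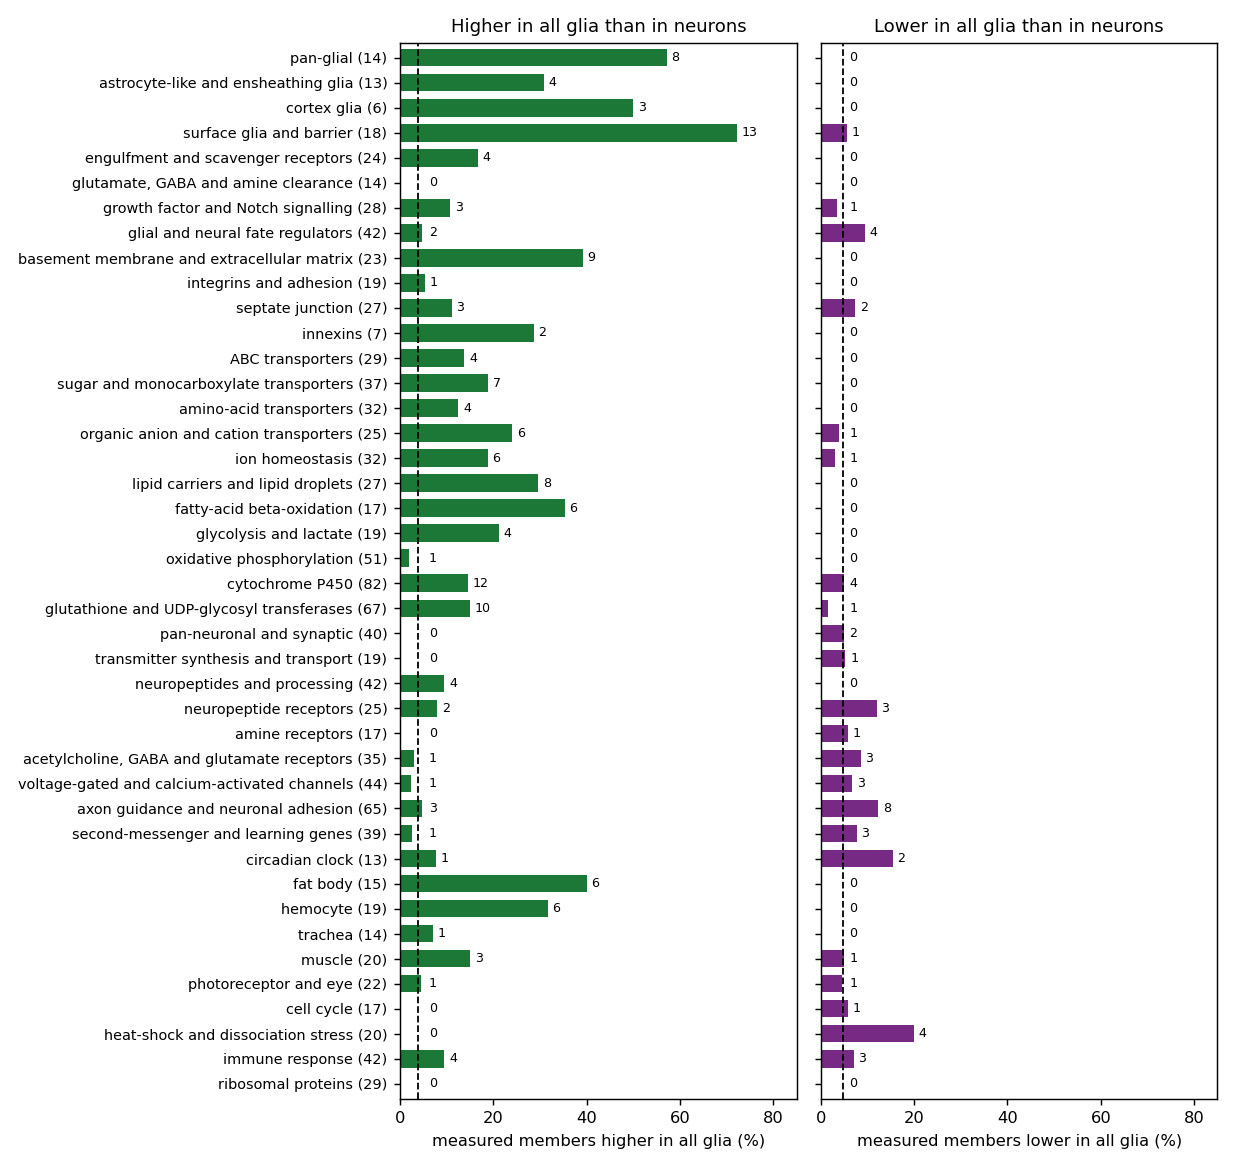
Percent of the measured members of each gene list (number measured in parentheses) that were higher (left) or lower (right) in all glia than in neurons, with the count beside each bar. Dashed lines mark the shares over all genes, 3.88% higher and 4.73% lower, and the surface and barrier list has the longest bar on the left with 13 of 18 members.

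Synaptic genes were called lower at about the share of all genes. Their median log2 difference was -0.42, against 0.18 over all genes. For the fifth of genes brightest in neurons (8.97 to 13.75), the median was -0.57 and 6.26% were called lower. The mean level of the synaptic list in neurons lay within that range. Of 40 genes used by all neurons or at synapses, 2 were lower (5.0%, against 4.73% of all genes) and none was higher by limma, with 1 higher and 5 lower at an unadjusted p under 0.05. All 5 all glia arrays lay below every neuron array for 6 of the 40, while this held for 5.05% of all genes. The list's mean level per array was 9.84 to 10.94 in all glia and 10.95 to 11.18 in neurons. elav was at 12.99, 12.79, 12.80, 11.95 and 12.47 in all glia, against 13.14, 13.15, 13.11, 12.97 and 12.84 in neurons. The groups overlapped, and the difference of -0.44 was not called (adjusted p = 0.204). nSyb, the synaptic vesicle SNARE, averaged 13.38 ± 0.11 in all glia and 13.47 ± 0.10 in neurons, and brp, an active zone scaffold, 12.91 ± 0.09 in all glia and 13.10 ± 0.03 in neurons (SD, n = 5 each). Neither difference was called, at -0.08 for nSyb and -0.19 for brp, although the brp arrays did not overlap. The nSyb and elav levels in whole brain were 13.49 and 12.78. The 2 called members were Vamp7 (-1.69), a SNARE of late endosomes, and Nlg1 (at least 0.22 lower), a neuroligin that lay within the controls in all glia. Vamp7 lost its call without all glia replicate 4.

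Of 19 genes for transmitter synthesis and transport 1 was lower (5.3%, against 4.73% of all genes) and 0 higher by limma, with 4 lower and 1 higher at an unadjusted p under 0.05 and a median difference of -0.42. That gene was prt, a vesicular transporter of mushroom body neurons (-1.53), and its call was lost in 5 of the 10 leave-one-out fits. Of 42 neuropeptide and processing genes 4 were higher in all glia (9.5%, against 3.88% of all genes) and 0 lower by limma, while 16 were higher and 0 lower at an unadjusted p under 0.05. ITP, the ion transport peptide, was at 9.09, 9.20, 11.05, 10.18 and 9.61 in all glia, against 5.75 to 5.98 in neurons, and Nplp2 was higher by 3.85. Proc, the proctolin precursor, was at 9.82 to 10.78 in all glia and 7.80 to 8.35 in neurons, a difference of 2.43.

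Receptors for peptides changed in both directions. Of 25 peptide receptors 3 were lower (12%, against 4.73% of all genes) and 2 higher (8%, against 3.88%). Without all glia replicate 4, 3 were lower and 1 was higher. Lgr3, a relaxin-type receptor for insulin-like peptide 8, was at 5.32, 5.11, 4.60, 7.27 and 5.96 in all glia, against 8.96, 8.85, 7.39, 8.46 and 8.05 in neurons. The groups did not overlap, though replicate 4 came closest, and the difference was -2.69 ± 0.46 (SE, n = 5 each, adjusted p = 0.000954). Dh44-R1, a diuretic hormone receptor, was at 6.43, 5.61, 6.52, 4.93 and 5.47 in all glia, against 7.27 to 9.04 in neurons, a difference of -2.28. TkR86C, a tachykinin-family receptor, was lower by 2.08, or by 1.43 without all glia replicate 4, which was at 3.29, and its call was lost in 1 of the 10 leave-one-out fits. Dh31-R, a receptor of diuretic hormone 31, was higher by 1.25, but its other probe set differed by -0.19 and was not called. AkhR, the other higher member, lost its call in 7 of the 10 leave-one-out fits, among them the fit without all glia replicate 4.

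Transmitter receptors and ion channels were called in both directions. Of 35 acetylcholine, GABA and glutamate receptors 3 were lower (8.6%, against 4.73% of all genes), or 1 without all glia replicate 4. In the other direction 1, nAChRbeta3, was higher by 1.88 (2.9%, against 3.88% of all genes). Ekar, a kainate-type glutamate receptor, was lower by 2.48 and GluRIA by 1.42, and both calls were lost without all glia replicate 4. The muscarinic receptor mAChR-B was the 1 of 17 amine and muscarinic receptors called, at -2.16 (adjusted p = 0.0494), and lost its call in 9 of the 10 leave-one-out fits. Of 44 voltage-gated and calcium-activated channels 3 were lower (6.8%), with Elk at -1.31, slo at -1.20 and Cngl at -1.41. The other Cngl probe sets, at -0.61, -0.25, -0.02 and 0.24, were not called. The calls of Elk, slo and Cngl were lost in 3, 1 and 8 of the 10 leave-one-out fits. Ork1, a potassium leak channel, went the other way, at 6.78, 4.77, 7.69, 5.78 and 9.41 in all glia and within the controls in neurons, a difference of at least 2.49.

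The list for axon guidance and neuronal adhesion had more members lower than any other list by count, 8 of 65 (12.3%, against 4.73% of all genes), with a median of -0.72, but 2 of 65 without all glia replicate 4. Ephrin, a guidance ligand, was at 5.81, 4.89, 8.86, 5.13 and 8.53 in all glia, against 9.88, 10.04, 9.04, 9.40 and 8.70 in neurons. Its all glia arrays were spread over a wide range that reached the neurons, and its call (-2.77, adjusted p = 0.0329) was lost in 6 of the 10 leave-one-out fits. Sema5c, a semaphorin, was called higher and averaged 4.95 in all glia, 0.56 above the control percentile of neurons. That level lay under the control percentile of all glia (mean 5.15), so the size of its rise is uncertain. sli, the secreted ligand of Robo receptors, was higher by 1.25, a call lost without all glia replicate 4. The other sli probe set differed by -0.33 and was not called. Of 39 second-messenger and learning genes 3 were lower (7.7%) and 1 was higher (2.6%, against 3.88% of all genes). Ac78C, an adenylyl cyclase, was at 4.33, 4.19, 7.79, 4.18 and 7.06 in all glia, against 8.12 to 9.14 in neurons, a difference of -3.17. for, the cyclic GMP-dependent protein kinase of the foraging gene, was higher by at least 2.12.

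Among 42 fate regulators 4 were lower (9.5%, against 4.73% of all genes) and 2 were higher (4.8%, against 3.88%). ey, a Pax6 gene used by mushroom body and eye lineages, was at 9.31, 7.23, 8.18, 6.34 and 8.80 in all glia, against 11.42, 10.96, 11.22, 10.43 and 11.48 in neurons. Every all glia array was lower, and the difference was -3.13 ± 0.68 (SE, n = 5 each, adjusted p = 0.00748). dac, a nuclear factor of the same retinal and mushroom body network, was at 9.28 to 10.45 in all glia and 11.10 to 11.99 in neurons, a difference of -1.81. Whole brain stood at 8.67 for ey and 9.61 for dac, below the neuron sort for both. Hnf4, a nuclear receptor of lipid metabolism, was higher by 2.57, at 9.45, 6.42, 6.34, 5.17 and 9.62 in all glia, against 4.23 to 5.10 in neurons. The spread of Hnf4 in all glia (SD 2.01) was wide, with replicate 4 lowest and just above the neurons.

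Signalling genes of glial development were called in 4 of 28 cases, 3 higher (10.7%, against 3.88% of all genes) and 1 lower (3.6%, against 4.73%). fng, the glycosyltransferase that tunes Notch, was at 8.41, 7.67, 9.05, 5.70 and 8.67 in all glia and within the controls in neurons, a difference of at least 3.51. Pvr, a receptor of the PDGF and VEGF type that is also a hemocyte gene, was higher by 2.03 with a call lost in 5 of the 10 leave-one-out fits. put, a type II TGF-beta receptor, was lower by 2.30. Of 24 engulfment and scavenger receptor genes 4 were higher (16.7%), NimB4 (2.37), NimC1 (1.89), NimB2 (1.11) and ced-6. NimC1 is also on the hemocyte list, and the calls of NimB2 and NimB4 were lost without all glia replicate 4. ced-6, an adaptor of the engulfment receptor Draper, was at 7.45, 6.93, 8.18, 5.68 and 8.37 in all glia, against 3.81, 4.72, 4.27, 8.04 and 4.65 in neurons. Neuron replicate 4 lay inside the all glia range, and the difference of 2.22 (adjusted p = 0.0403) lost its call in 6 of the 10 leave-one-out fits.

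Clock genes were called in both directions, 1 higher (7.7%, against 3.88% of all genes) and 2 lower (15.4%, against 4.73%). Of 13 measured, tim was higher, at 11.21, 11.03, 11.66, 9.31 and 11.28 in all glia, against 9.28, 8.40, 8.07, 8.71 and 8.52 in neurons, a difference of 2.30 (adjusted p = 0.0127). Replicate 4 was the low array and lay just above the highest neuron array. per, whose protein pairs with that of tim, was lower, at 6.09 to 7.65 in all glia and 7.83 to 8.47 in neurons (-1.20, adjusted p = 0.00668). dco, the kinase doubletime, was lower by 2.46, but replicate 4 was at 5.90 and the call was lost without it. The time of day of dissection is not given in the sources used here.

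A small heat-shock gene was the largest loss. Of 20 heat-shock and dissociation stress genes 4 were lower (20.0%, against 4.73% of all genes) and 0 higher by limma, while 10 were lower and 0 higher at an unadjusted p under 0.05. Without all glia replicate 4, 2 were lower. CG4461, an alpha-crystallin type chaperone, was at 8.02, 4.14, 8.04, 6.20 and 5.89 in all glia, against 11.67, 11.43, 11.27, 10.75 and 11.94 in neurons. The difference of -4.95 ± 0.89 (SE, n = 5 each, adjusted p = 0.00167) was the largest fall over genes, and whole brain stood at 3.35 and surface glia at 6.06. Neurons were thus the high group for CG4461, above all 3 others. l(2)efl, a related chaperone, had a brightest probe set at 6.99, 3.15, 2.58, 9.15 and 4.39 in all glia and 8.66 to 10.06 in neurons. Its other two probe sets differed by 0.15 and 0.16, and its call (-4.18) was lost in 5 of the 10 leave-one-out fits. The neuron sort was shaken at 1000 rpm and the all glia sort at 500 rpm, and the part of this treatment in the stress genes cannot be told apart from cell type.

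The other large falls were mixed in function. Sol1 fell to 5.82 ± 1.59 in all glia, against 9.72 ± 0.55 in neurons (SD, n = 5 each, difference -3.90, adjusted p = 0.0002). Its other probe sets differed by -2.53 (called lower) and -0.21 (not called). cmet, a kinetochore kinesin, was lower by 3.86, nbs, a DNA repair protein, by 3.20, and RhoGAP102A by 3.28, with a second probe set at -5.80. fest was at 4.93, 2.93, 4.19, 3.45 and 2.94 in all glia, against 7.48, 8.08, 6.70, 6.73 and 7.98 in neurons, a difference of -3.71. CG8248 was lower by 3.32, or by 2.42 without all glia replicate 4, which was at 4.47 while the others were at 8.55 to 9.94. All 15 of the largest falls were also called without that array.

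Immune genes were called in both directions, 4 higher (9.5%, against 3.88% of all genes) and 3 lower (7.1%, against 4.73%) of 42. BomS2, a short bomanin induced by Toll signalling, was at 12.53, 7.81, 9.58, 12.04 and 8.37 in all glia, against 3.06, 5.59, 3.0, 3.39 and 3.26 in neurons. nec, a serpin that restrains Toll activation, was at 9.71, 9.86, 8.90, 7.80 and 8.83 in all glia, against 4.39 to 4.95 in neurons, a difference of 4.43 ± 0.34 (SE, n = 5 each, adjusted p = 2.9e-08). Myd88, the Toll adaptor, was higher by 1.98. PGRP-LE, an intracellular peptidoglycan sensor, was lower by 2.57, at 5.98 in all glia and 8.55 in neurons. The STAT pathway members Stat92E and dome were lower by 1.80 and 1.55, and both calls were lost without all glia replicate 4.

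Counts of genes whose arrays did not overlap are given here beside the calls. All 5 all glia arrays were above all 5 neuron arrays for 13.1% of genes and below them for 5.05%, and 372 of the 465 higher genes and 296 of the 567 lower genes were apart in this way. Centring each array on its median gave 415 probe sets higher and 1022 lower, in place of 596 and 816, and quantile normalization gave 448 and 449. These scalings shifted the median difference of all probe sets by -0.15 and -0.17, and no called gene named here changed direction under them. Calls were lost, however, among the genes picked for naming, some of which are left out of the text. Quantile normalization kept 28 of their lower calls and lost 24, among them those of sinu, per and Cyp4ac1. It kept most of their higher calls and lost 19. Median centring lost 11 higher and 0 lower calls.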

How the data were processed

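The samples were RNA of sorted cells, amplified and labelled with biotin and read on 1-colour expression arrays. The deposited log2 values had been background-corrected and normalized together by the authors with RMA, and affy and limma are also named, per the submitters' processing notes, without versions. The scale was taken as log2 from the range of the values. Of 18952 probe sets, 183 were array controls, which leaves 18769 for the tests. Gene names came from the platform annotation: 13647 probe sets had 1 symbol, 402 had several and 4720 had none, and only the first kind was named, giving 11982 genes, 11894 of them found in RefSeq. For the 1094 genes with several probe sets, the one with the highest mean over the 20 arrays was used.

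All 20 arrays were fitted with limma 3.58.1 (R 4.3.3), with 1 mean for each of the 4 groups and 1 shared spread per probe set. The groups were unlike in spread, with a median SD of 0.59 in all glia, 0.27 in neurons, 0.58 in surface glia and 0.15 in whole brain. For genes that varied widely in all glia, a call can therefore look firmer than it is. Benjamini-Hochberg adjustment ran over all probe sets tested. Controls are the 44 negative-control probe sets, by their 95th percentile in each array. The script was tested on simulated data for this comparison over 18769 probe sets: 35, 40, 47 and 47 of 50 changes of 1.5, 2, 3 and 4 were recovered, with 35 false calls among 18569 unchanged probe sets. The false calls were as many as the recovered changes of 1.5, so their share of the calls made was far above their share of the unchanged probe sets. Same-numbered arrays did not deviate together (correlations of 0.00 to 0.071, 1 of 5 closest to its own number), so the numbers were not used as pairs.

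Named genes were the 15 largest rises and falls with arrays that did not overlap, up to 5 called members with the largest differences of each gene list, up to 2 opposing members, and fixed markers, and some of these are left out of the text. The members and lists were chosen with earlier results of these data known, so list counts describe and support nothing by themselves, and lists share members. From the lists, 3 uncalled members were taken out after their values were seen, because their listed role was wrong. Replicates came from different bottles of flies on different days. The number of arrays limits the precision. Alternatives were other normalizations, weights, filters, thresholds and left-out arrays. Mhc and sequences of the genes were not used here.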

Additional observations from a re-analysis of the deposited data

Results flagged for a closer look

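Single arrays that stood far from the other 4 of their group were looked for in 254 groups of 5 values, and 20 were found, where chance gives about 1 in 20 groups. All glia replicate 4 accounted for 8 of them. Its negative controls had a 95th percentile of 6.08, above the others (4.70 to 5.10). In that array CG8248 was at 4.47 (others 8.55 to 9.94), Cyp4g15 at 7.26 (others 8.50 to 8.71), GstS1 at 3.27 (others 8.62 to 9.70) and Mdr49 at 7.73 (others 9.44 to 10.08). Also in that array, TkR86C was at 3.29 (others 6.18 to 6.94), if at 4.04 (others 8.34 to 9.70) and tim at 9.31 (others 11.03 to 11.66).

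In the other all glia arrays, AGBE was at 9.66 in replicate 1 (others 7.58 to 7.94) and alrm at 9.70 in replicate 5 (others 3.84 to 4.82). Among neurons, Oatp74D was at 6.63 in replicate 1 (others 3.78 to 4.33). In neuron replicate 2, BomS2 was at 5.59 (others 3.0 to 3.39), fabp at 9.93 (others 9.4 to 9.5) and wal at 7.06 (others 7.37 to 7.45). In neuron replicate 3, Prip was at 4.87 (others 3.08 to 3.43) and nbs at 8.50 (others 7.65 to 7.81). In neuron replicate 4, ced-6 was at 8.04 (others 3.81 to 4.72), CG7888 at 6.54 (others 4.83 to 5.29) and alrm at 6.05 (others 4.01 to 4.27). In neuron replicate 5, Hnf4 was at 4.23 (others 4.89 to 5.10).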

How the results depend on the processing

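With all arrays, 596 probe sets were higher and 816 lower. With the replicate block the counts were 659 and 1043, and the replicate numbers do not pair the arrays. Fits of only the 10 arrays gave 479 and 589, array weights 659 and 1199, and median centring 415 and 1022. Quantile normalization gave 448 higher and 449 lower. Leaving out probe sets below the median level gave 382 higher and 572 lower, fewer being tested. With no minimum difference 1704 were higher and 909 lower, and at an adjusted p under 0.01 the counts were 280 and 243. Leaving out 1 array at a time gave 372 to 838 higher and 436 to 1042 lower. The lower count fell to 535 without all glia replicate 4, 436 without neuron replicate 1, 491 without neuron replicate 2 and 471 without neuron replicate 3. The higher count fell to 372 without neuron replicate 1 and 391 without neuron replicate 3. The causes were not tested. None of the called genes singled out by the naming rule changed sign under the alternatives run, though many lost their calls under some of them. Other genes were not followed. Of the genes singled out by the naming rule, 80 higher and 29 lower kept their calls in all 10 leave-one-out fits, while 24 higher and 23 lower lost theirs in at least 1.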

Other observations

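By chromosome, as RefSeq's Release 6 table places the genes, chromosome 4 differed in its values. Of its 65 measured genes 0 were higher in all glia and 10 were lower (15.4%), with a median log2 difference of -0.78, while of 11824 genes on other chromosomes 464 were higher and 555 lower (4.69%), with a median of 0.18. Without all glia replicate 4, 5 of the 65 were lower (7.69%) and the median was -0.53. The lower genes, named after their values were seen, were bt (-4.22), RhoGAP102A (-3.28), ey (-3.13), CG1674 (-2.88), Ephrin (-2.77), sv (-2.74), Ekar (-2.48), Mitf (-2.31), Rnf11 (-2.10) and CG33941 (-1.87). This share was not tested.

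The median difference also moved with the length of the gene on the genome. In 5 equal bins of genes, short to long, the median log2 difference was 0.43, 0.31, 0.17, -0.09 and -0.19, and without all glia replicate 4 it was 0.26, 0.17, 0.10, -0.02 and -0.07. The share of genes called higher moved the other way, at 2.56%, 2.94%, 3.87%, 4.50% and 5.63%, short to long. In 5 bins by level in neurons, low to high, the median difference was 0.52, 0.59, 0.17, -0.55 and -0.57. Those bins use the neuron values, which also enter the difference. The synaptic, transmitter synthesis and axon guidance lists were bright in neurons, so their medians are to be read beside those of the bright bins. The causes of these trends were not tested.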
